A study of Mus musculus with 2 samples.

Results

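The receptors described here are the olfactory receptor (Olfr) genes of mouse chromosomes 17 and 13, chosen only by position: all table entries whose locus lies on either chromosome in build mm9. They number 62 of the 1112 entries, with 49 on chromosome 17 and 13 on chromosome 13. Runs of loci with less than 1 Mb between neighbours divided them into 4 groups. The largest holds 46 entries on chromosome 17 from 37.2 to 38.5 Mb, beside the major histocompatibility complex (MHC). Another 12 entries lie on chromosome 13 from 21.2 to 21.8 Mb, in the mouse counterpart of the human extended MHC. The others are a trio on chromosome 17 (Olfr55, Olfr239 and Olfr63), and Olfr466 alone on chromosome 13.

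The RNA was extracted from olfactory epithelium, where the odour-sensing neurons lie, of C57BL/6 adults. There are 2 samples, both labelled wild type in title and genotype, although the description of the second reads 3bko, a term not explained in the sources used here. The deposited table gives 1 FPKM per gene (fragments counted for a gene, divided by its length in kilobases and by the number of mapped fragments) and does not say which library it comes from. Every row of it carries both labels, wt and 3bko, so a value may belong to either library or to their comparison, and the status NOTEST may refer to that comparison. There are therefore no replicates, no errors and no tests below. The sequencing depth is unknown. Everything that follows compares levels between genes in a single set of values. Of 11 marker genes listed for neurons, basal cells and sustentacular cells, 0 are in this table of receptor genes, so the tissue label could not be checked.

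Olfactory receptors are G protein-coupled receptors with 7 transmembrane segments, and their coding sequence usually lies in 1 exon. A mature sensory neuron as a rule expresses a single receptor gene from a single allele. In whole tissue, a gene's RNA level thus reflects both how many neurons chose it and how much RNA each neuron holds, and these cannot be told apart here. Receptor clusters beside the MHC are found in many mammals, and the receptors encoded there have drawn interest because MHC type can influence mate and kin odours. Mouse receptors are sorted by sequence into numbered MOR families. Class I receptors, related to those of fish, are families 1 to 42, and 61 of the 62 entries carry a family number above 42, which is class II. Olfr111 has no family number.

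The chromosome 13 group is almost a single family. MOR256 accounts for 11 of its 12 entries, and the remaining one, Olfr1366, belongs to MOR130. The chromosome 17 group is mixed, with 17 MOR256 entries, 10 of MOR218, 7 of MOR263, 5 of MOR156, 4 of MOR250 and 1 each of MOR121 and MOR249. To show how the receptors vary even in a conserved stretch, the 30 bases that encode the end of the third transmembrane segment are given for genes with high or low levels. The sequences are coding exon sequence from GENCODE M21 transcripts, written 5′ to 3′, and capitals mark bases that differ from Olfr1364, the highest entry of the set. The first 4 genes are from the chromosome 13 group and the next 5 from the chromosome 17 group.
Olfr1364: atggcttacgaccgtttcactgcaatctgc
Olfr1535: atggcttaTgaTcgCtATGctgcTGtctgc
Olfr1368: atggcCtaTgaccgCtATGctgcTGtctgT
Olfr1359: atgTcCtTTgacAgGttTGTAgcCatctgT
Olfr124: atggcCtTTgaccgtttTGctgcCatTtgc
Olfr131: atggcCtTTgaTcgCtATGTGgcCatctgc
Olfr136: atgTcCtTTgaTcgAtATGTGgcTatctgc
Olfr121: atggcCtaTgaccgCtGcaTGgcCatAtgc
Olfr113: atgTcAtaTgaTcgGtATGTAgcTGtTtgT
The search found the stretch in 53 of the 62 genes, Olfr1364 included. These differ from Olfr1364 at a median of 9 bases and at most 14 (Olfr113). Every stretch found begins with atg and ends with tgc or tgt. The other 9 genes gave no match, which does not show that they lack this segment. The number of differences did not separate the families. Its median was 11 over 24 MOR256 genes, which include Olfr1364 itself at 0, and 9 over 29 genes that are not MOR256. The MOR256 genes Olfr1370, Olfr1367, Olfr94 and Olfr132, in which the search found no stretch, are left out. Nor did the number separate the chromosomes. Olfr1362 and Olfr1366 of chromosome 13 and Olfr124, Olfr95 and Olfr119 of chromosome 17 each differ at 7 bases. The stretch itself followed family in part. Genes in which the search did not find it include Olfr97, Olfr98, Olfr99, Olfr107 and Olfr108, which are all the MOR156 genes. Olfr101, Olfr102 and Olfr103 of MOR250 are identical in it, while Olfr109 of that family is not. Over the whole coding sequence, the 187 pairs of a chromosome 17 and a chromosome 13 MOR256 gene had a median identity of 58.9% (51.2% to 65.6%). Pairs of MOR256 genes within the chromosome 13 group had a median of 59.9%, and pairs within the chromosome 17 group 59.96%. No 50-base stretch of coding sequence was shared between the 2 groups in any of their 552 pairs.

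Both MHC-linked groups sat above the middle of the receptor repertoire. On chromosome 17 the 46 entries had a median FPKM of 2.19, with quartiles at 0.929 and 3.40. On chromosome 13 the 12 entries had a median of 3.76, with quartiles at 1.25 and 5.47. Over all 1112 entries the median was 1.09. A level of at least 1 FPKM was reached by 33 of 46 entries (71.7%) on chromosome 17 and by 10 of 12 (83.3%) on chromosome 13, against 52.5% of all entries. Among 21 clusters of at least 10 entries in the table, ordered by median, the chromosome 13 group was the third and the chromosome 17 group the seventh. Of the receptor FPKM summed over the table, the chromosome 17 group held 4.34% with 4.14% of the entries, and the chromosome 13 group held 2.00% with 1.08% of them. Genes are not replicates, so these medians and counts are a description and no p-value is attached to them.

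**Figure D1:**
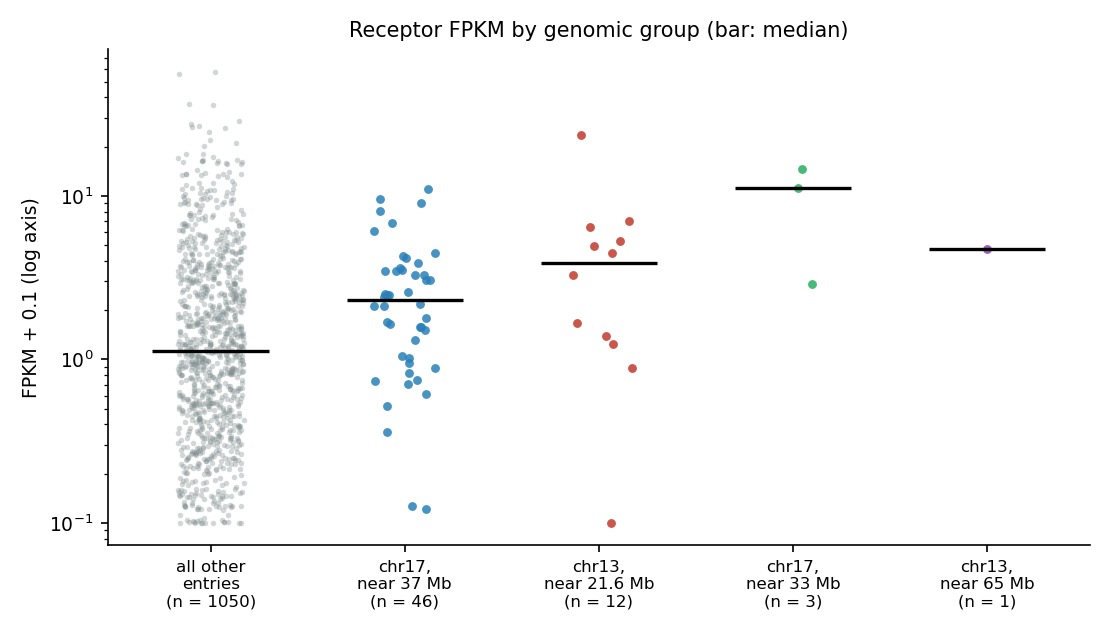
FPKM + 0.1 on a log axis for each entry, in the 4 groups of chromosomes 17 and 13 and in the 1050 entries of other chromosomes. Points are genes and bars are medians, at 2.19 for chromosome 17 near 37 Mb and 3.76 for the 12 entries of chromosome 13 before 0.1 was added, and the ranges of these groups overlap.

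The order of the 2 medians was not stable. The difference was 0.74 on the log2(FPKM + 0.1) scale in favour of chromosome 13. It was -0.46 when the 3 outer genes Olfr1370, Olfr263 and Olfr1368, which lie 204 kb from the next locus, were left out by a narrower definition of a group. It was -0.72 among genes with at least 80% of their coding 50-mers unique, and 0.03 without the near-identical pair Olfr1359 and Olfr1360. The ranges of the 2 groups overlapped, from 0.0207 to 10.9 and from 0 to 23.4.

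On chromosome 13 a single gene, Olfr1364, held 39.7% of the summed FPKM of 12 entries. In the chromosome 17 group of 46 entries the highest gene, Olfr124, held 8.52% of the sum. Such shares depend on the number of entries and are not compared between the groups. An FPKM of 5 or more was reached by 4 of 12 entries on chromosome 13 and 6 of 46 on chromosome 17, against 14.3% of all entries. An FPKM of 10 or more was reached by 1 entry in each group, against 5.40% of all entries.

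Olfr1364 (MOR256-13; chromosome 13, 21665379 to 21666323, minus strand) had an FPKM of 23.4, the highest of the 62 receptors and the 11th of the whole table. It was the third of the 50 MOR256 entries of the table. Its value was 3.37 times that of the next gene of the group, Olfr1368 at 6.95. Every 50-mer of its coding sequence is unique among annotated Olfr transcripts, so no stretch of that length in it is shared with another receptor. The genes on either side were much lower, and near the table's median of 1.09. Olfr1535, 17.5 kb to the left, had 0.790, and Olfr1362, 36.6 kb to the right, had 1.29, ratios of 29.7 and 18.2. All 3 belong to MOR256 and are read from the minus strand.

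The other chromosome 13 genes fell into 2 stretches separated by Olfr1367. The outer stretch, from 21.16 to 21.23 Mb, had Olfr1370 at 6.33, Olfr263 at 4.86 and Olfr1368 at 6.95, all above the table's median. Only 46.7% of the coding 50-mers of Olfr263 are unique, the others being found also in Olfr1369-ps1, a neighbour not analysed here, so its value is uncertain. The inner stretch of 8 genes, from 21.63 to 21.80 Mb, ranged from 0.790 to 23.4 with a median of 2.37. Beside Olfr1364 it holds Olfr1359 at 5.19, Olfr1360 at 4.34, Olfr11 (the M49 receptor) at 3.18, Olfr1361 at 1.57 and Olfr1366 at 1.13. Olfr1361 lies outside the rule for named genes and was added after its value was seen, to complete the group. Between the stretches, Olfr1367 (21438799 to 21439749) was listed at 0, with the status NOTEST, which Cuffdiff gives where alignments are too few.

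**Figure D2:**
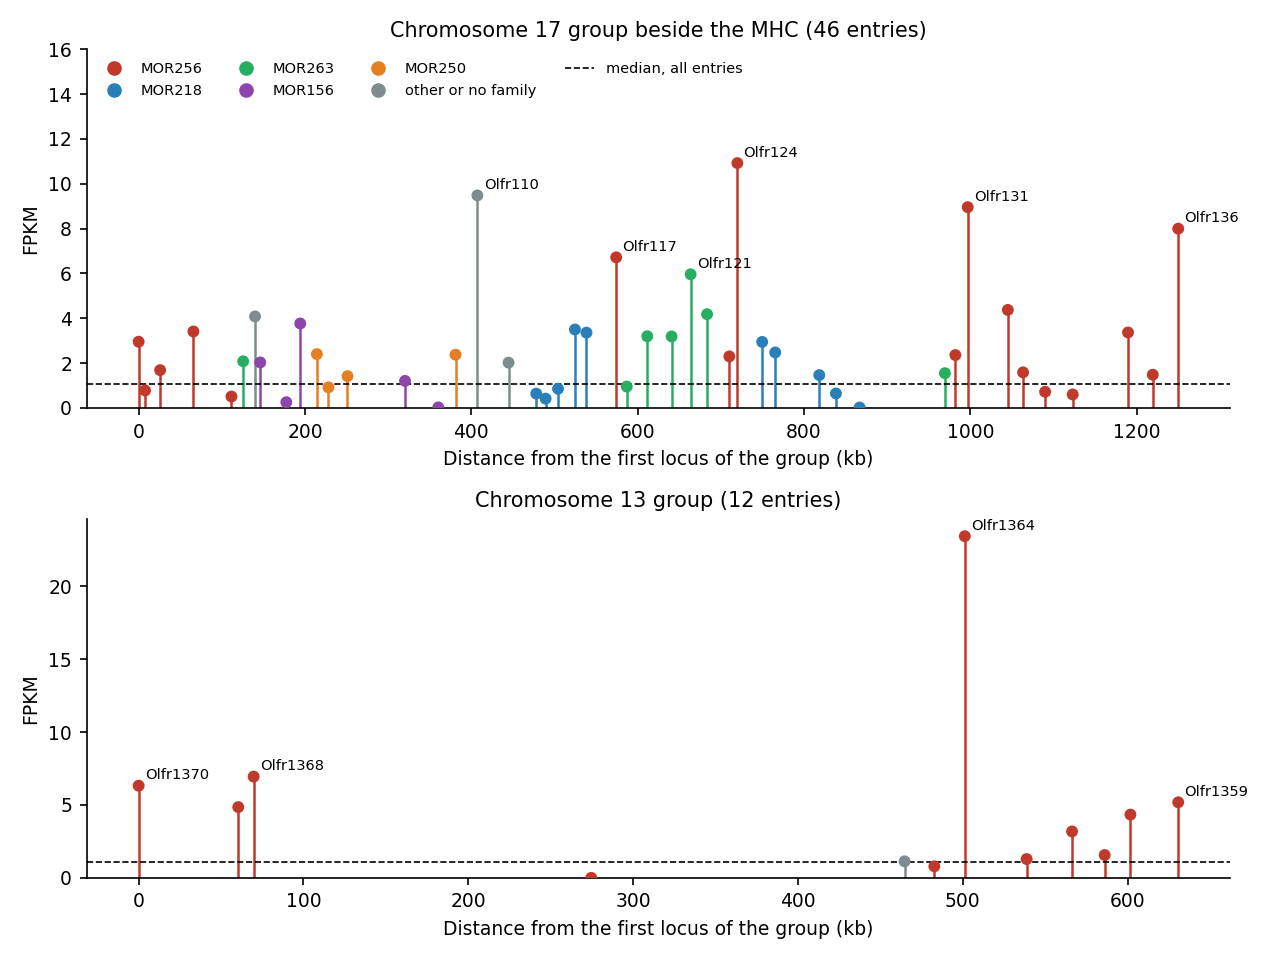
FPKM of each entry against the distance of its locus from the first locus of the group, in kb, for chromosome 17 (top, 46 entries) and chromosome 13 (bottom, 12 entries). Colours are MOR families and the dashed line is the median of all entries, 1.09; Olfr1364 at 23.4 stands between neighbours at 0.790 and 1.29, and the highest chromosome 17 genes are spread along the group.

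In the chromosome 17 group near 37 Mb the highest levels came from several families. Olfr124 (37942014 to 37943135, plus strand) led with an FPKM of 10.9 and was 50th in the table. This is MOR256-3, or SR1, a receptor known for responding to an unusually wide range of odorants and for its frequent use in the septal organ, a small patch of olfactory tissue on the nasal septum. Its coding 50-mers are all unique. Olfr110, the group's single MOR249 entry, followed at 9.48. Olfr131 (MOR256-4) had 8.96, Olfr136 (MOR256-7) had 7.997 and Olfr117 (MOR256-33) had 6.72. The next were Olfr121 at 5.96 and Olfr122 at 4.18, both MOR263, with the MOR256 gene Olfr132 between them at 4.37, then Olfr96 (MOR121) at 4.08 and Olfr99 (MOR156) at 3.77. These 10 genes are scattered from the first to the last part of the group, with none among the first 5 loci. The unique share of coding 50-mers is 42.6% in Olfr110, 61.1% in Olfr117, 67.1% in Olfr121 and 75.7% in Olfr122, so their values are less certain. It is 81.4% or more in the other genes listed. Its median over the group was 81.2%, against 92.2% over all entries.

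The MOR256 genes of chromosome 17 had a median FPKM of 2.36 over 17 entries (0.510 to 10.9), those of chromosome 13 had 4.34 over 11 (0 to 23.4), and those of other chromosomes had 3.04 over 22. At least 1 FPKM was reached by 13 of 17, 9 of 11 and 16 of 22 of these. The ranges overlap widely. Olfr90 (MOR256-21), the first gene of the chromosome 17 group, had 2.96. Its MOR256 neighbours Olfr91, Olfr92, Olfr93 and Olfr94 ranged from 0.510 to 3.41. Olfr94 is set apart by sequence: its coding GC content is 64.95%, against 40.5% to 58.2% in the other genes of the group, and its closest relative among the 62, Olfr90, is 58.1% identical. Its FPKM of 0.510 was among the 5 lowest of the group.

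MOR263 had the highest median of the larger families in the chromosome 17 group near 37 Mb, at 3.19 over 7 entries (0.955 to 5.96). From 67.1% to 79.5% of the coding 50-mers of Olfr118 to Olfr122 are unique, so their values are less certain. The share is 82.9% in Olfr129 and 100% in Olfr95. Only 6 of the group's 46 loci exceed 1200 bp in the table. Among them are those of Olfr119, Olfr121, Olfr122 and Olfr129 in MOR263, at 3979 to 5186 bp. The MOR263 entries with shorter loci, Olfr118, Olfr95 and Olfr120, had 0.955, 2.08 and 3.19. The part of the gene model in this ranking was not tested. The table holds 3 more MOR263 entries elsewhere. MOR250 had 1.90 over 4 entries, led by Olfr101 at 2.40 and Olfr109 at 2.38. MOR156 had 1.21 over 5 entries, from 0.0259 for Olfr108 to 3.77 for Olfr99, with Olfr97 at 2.03. MOR218 had 1.16 over 10 entries, close to the table's median of 1.09, and was led by Olfr115 at 3.50 and Olfr116 at 3.36. All entries of MOR218, MOR156 and MOR250 in the table lie in this group, so family and position cannot be told apart for them. MOR218 forms a pair of 5-gene blocks, with medians of 0.856 from Olfr112 to Olfr116 and 1.47 from Olfr125 to Olfr761.

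**Figure D3:**
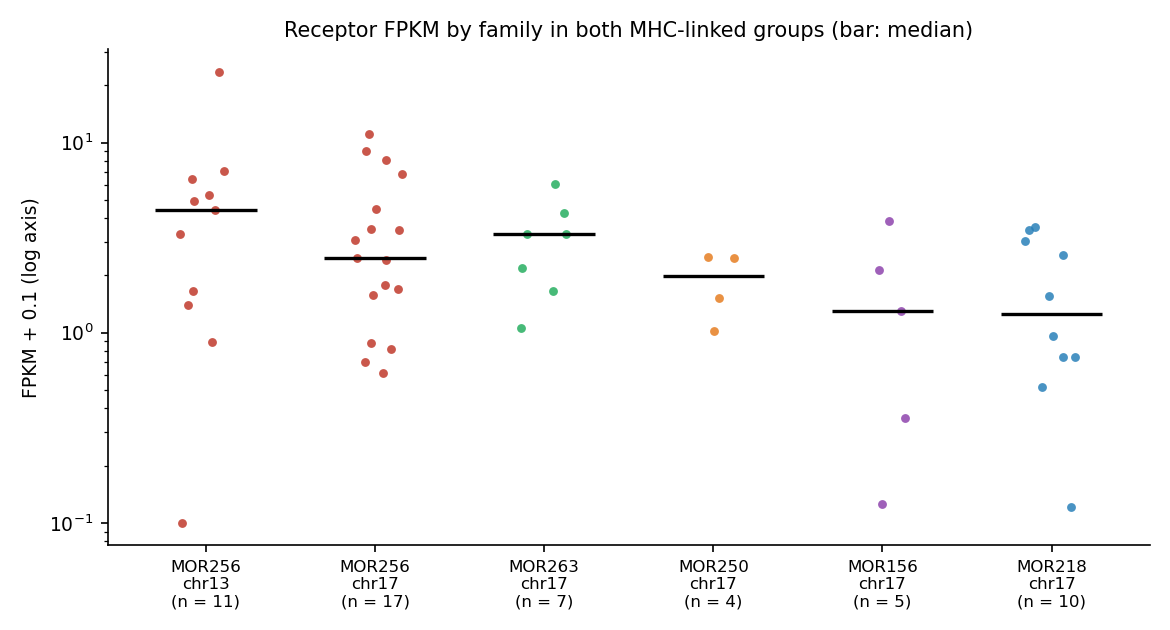
FPKM + 0.1 on a log axis by MOR family. Shown are MOR256 on chromosome 13 and the 5 families with at least 3 entries in the chromosome 17 group near 37 Mb. Points are genes and bars are medians; before 0.1 was added these run from 1.16 in MOR218 to 4.34 in MOR256 of chromosome 13, with overlapping ranges.

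Adjacent genes differed in level by a lower median than over all pairs of their group. The median absolute difference between adjacent loci was 1.13 on the log2(FPKM + 0.1) scale over 45 adjacent pairs on chromosome 17, against 1.31 over all 1035 pairs of that group. On chromosome 13 it was 1.24 over 11 adjacent pairs, against 1.90 over all 66. A difference of more than 1 log2 unit separated 27 of the 45 adjacent pairs on chromosome 17, a share close to the 634 of all 1035 pairs. On chromosome 13 it separated 6 of the 11 adjacent pairs, against 45 of all 66. Olfr123 and Olfr124, for instance, are MOR256 genes 8.69 kb apart with FPKM of 2.30 and 10.9, and Olfr137 and Olfr136 are MOR256 genes 29.7 kb apart with 1.48 and 7.997. Both examples were chosen after their values were seen.

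The lowest entries shared a feature of annotation that position did not give. Olfr761 had an FPKM of 0.0207, Olfr108 had 0.0259, Olfr98 had 0.257 and Olfr1367 was listed at 0. These 4 are the NOTEST entries of the 62, against 18.3% of all entries. They are also the 4 with the shortest annotated transcripts, at 1029, 1038, 1039 and 1055 nt, each a single exon. The other 58 had transcripts from 1389 nt upwards, 0 had the status NOTEST, and their median FPKM was 2.63. The same went for the rest of the table. Outside the 2 MHC-linked groups, 93 entries with transcripts under 1100 nt had a median FPKM of 0.0534 and 82.8% were NOTEST, while 944 entries with longer transcripts had a median of 1.17 and 12.7% were NOTEST. The other single-exon genes in the 2 MHC-linked groups are Olfr95, with a transcript of 5129 nt and an FPKM of 2.08, and Olfr1362, with 3045 nt and 1.29. Olfr95 was named after its value was seen. The part of the annotation in these low values was not tested.

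**Figure D4:**
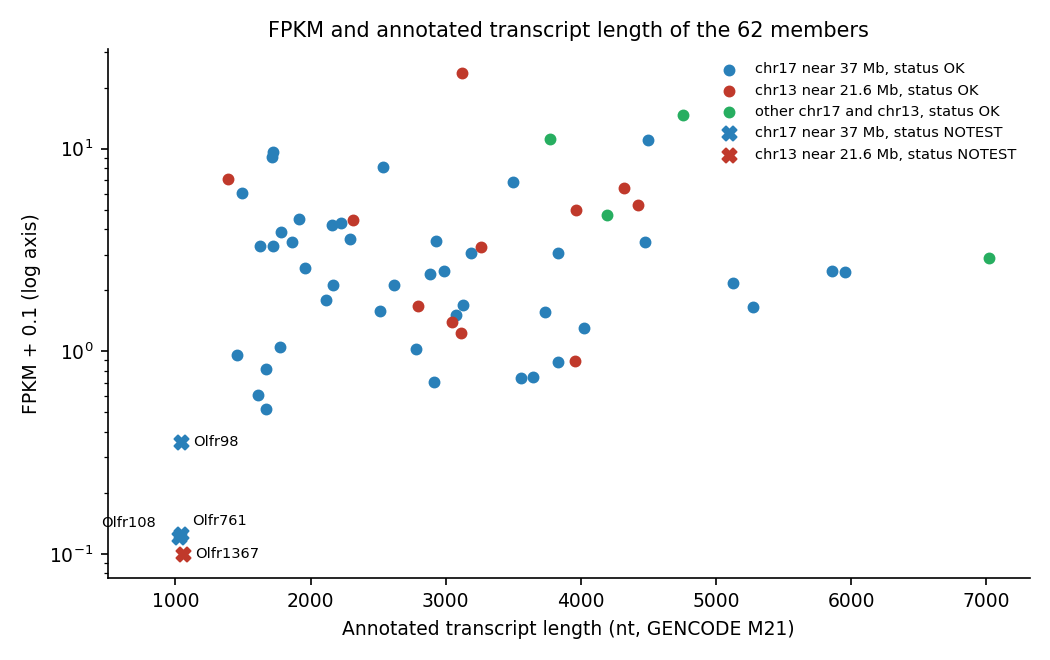
FPKM + 0.1 on a log axis against annotated transcript length in nt for the 62 entries, coloured by group. Crosses are the 4 NOTEST entries, which lie together at 1029 to 1055 nt and at or below an FPKM of 0.257.

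Exon number as annotated in GENCODE M21 went with level in both groups. The gene models behind the FPKM are not stated. In 43 of the 62 entries the table's locus is just the coding length, with or without the stop codon. The exons counted here may therefore differ from those measured. On chromosome 17 the median FPKM was 0.141 over 4 genes with 1 exon, 2.02 over 19 with 2 exons and 2.48 over 23 with 3 or more. On chromosome 13 it was 0.645 over 2 genes, 3.18 over 7 and 6.95 over 3. The short NOTEST entries described above are 3 of the 4 single-exon genes on chromosome 17 and 1 of the 2 on chromosome 13. The low single-exon medians thus restate in part the result for transcript length, and the correlations below include these entries. Spearman's rho across genes was 0.38 over 46 genes on chromosome 17 and 0.74 over 12 on chromosome 13, against 0.38 over 1095 entries of the table matched by symbol. In both groups exon number had the highest rho of the annotation features compared, but not over the table. For transcript length rho was 0.12 on chromosome 17, 0.30 on chromosome 13 and 0.30 over the table. For the length before the coding sequence it was 0.32, 0.03 and 0.44. The genes share libraries and an annotation, and rho is given as a description.

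Several receptors resemble one another so closely that reads could be assigned to the wrong gene. Olfr1359 and Olfr1360, of MOR256 and 28.0 kb apart on chromosome 13, differ at 3 of 939 coding bases. Only 12.1% of their coding 50-mers are unique, the lowest share among 1091 entries of the table. Their values were close, at 5.19 and 4.34, and neither can be taken for its gene alone. The 60 coding bases in which they differ most are shown next (ending at base 326 of each coding sequence, 5′ to 3′), with capitals where the genes differ. A window chosen in the same way is given for Olfr110 and Olfr111 (bases 817 to 876), which differ at 18 of 951 coding bases.
Olfr1359: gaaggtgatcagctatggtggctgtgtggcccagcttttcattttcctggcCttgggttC
Olfr1360: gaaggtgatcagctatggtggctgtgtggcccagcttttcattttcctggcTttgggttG
Olfr110: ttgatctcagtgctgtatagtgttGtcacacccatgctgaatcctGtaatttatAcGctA
Olfr111: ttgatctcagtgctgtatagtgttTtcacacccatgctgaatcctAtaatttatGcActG
The first pair holds 2 differences in its window and the second holds 5. Unlike the first pair, Olfr110 (37629413 to 37636619) and Olfr111 (37666902 to 37667942) had unlike values, 9.48 and 2.02, a ratio of 4.69. Their loci in the table are of different kinds. That of Olfr110 spans 7207 bp and that of Olfr111 1041 bp, against a coding length of 951 bases without the stop codon in both. The part that the gene model plays in this ratio was not tested, and 42.6% of the coding 50-mers are unique in each.

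Close sequence did not always go with close levels. Of 60 gene pairs with at least 85% coding identity, 58 lie within the chromosome 17 group, 1 is Olfr1359 with Olfr1360, and 0 join different groups. Their differences ran from 0.0042 to 4.41 log2 units. Within the chromosome 17 group, the 33 pairs with at least 90% identity differed by a median of 1.26 log2 units, against 1.33 for the 1002 pairs below 90%. Pairs reuse genes and are not separate observations. The 33 include every pair among the MOR263 genes Olfr118 to Olfr122 and Olfr129. They also include pairs with the low NOTEST entries Olfr98 or Olfr761, which differed by 1.87 to 4.41. The median without such pairs was not computed. Olfr117 and Olfr130, 97.2% identical, had 6.72 and 2.36, and Olfr101 and Olfr102, 96.6% identical, had 2.40 and 0.920. Olfr97 and its NOTEST neighbour Olfr98, 94.5% identical, had 2.03 and 0.257. The chromosome 13 group, apart from Olfr1359 and Olfr1360, has no pair above 75.4%.

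**Figure D5:**
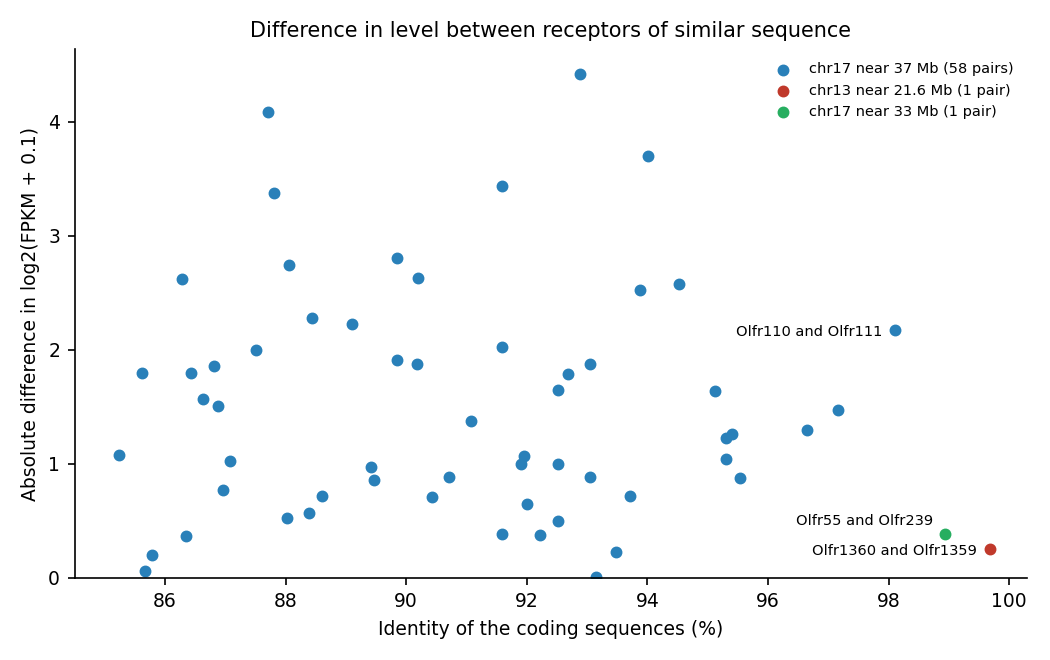
Absolute difference in log2(FPKM + 0.1) against coding sequence identity in percent for the 60 pairs with at least 85% identity. Points are pairs coloured by group, and the chromosome 17 pairs range up to 4.41 log2 units (Olfr126 and NOTEST entry Olfr761).

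The 2 smaller groups hold 3 entries and 1 entry. On chromosome 17, Olfr55 (33313361 to 33314308) had an FPKM of 14.5, Olfr239 (33336007 to 33336954) had 11.1 and Olfr63 (33405671 to 33406621) had 2.79. All 3 are MOR267 genes on the plus strand. Olfr55 and Olfr239 were the second and the third of the 62 receptors, but they are 98.9% identical, and 34.2% and 27.7% of their coding 50-mers are unique. The rest are shared between them and with Olfr1564, not analysed here. Their window of most differences, ending at base 348 of the coding sequence, is shown with capitals at the 2 differing bases.
Olfr55: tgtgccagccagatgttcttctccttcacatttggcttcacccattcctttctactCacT
Olfr239: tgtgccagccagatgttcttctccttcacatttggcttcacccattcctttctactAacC
All 50-mers of Olfr63 are unique. The other 11 MOR267 entries of the table, on other chromosomes, had a median of 1.35 and a maximum of 7.30. Olfr466 (chromosome 13, 65253534 to 65254460, plus strand), the only MOR209 entry of the table, had an FPKM of 4.61, and its coding 50-mers are all unique.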

How the data were processed

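RNA sequencing libraries of olfactory epithelium were made from Trizol RNA with the TruSeq protocol, per the labels' protocols. The authors made the FPKM values on build mm9; TopHat2, Bowtie2 and Cuffdiff are named, without roles, in the submitters' processing notes. No version, gene model or treatment of multiply mapped reads is stated there. With 1 value per gene, no test was possible. Locus starts were raised by 1 to count from 1.

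Family names came from RefSeq synonyms (62 of 62 matched by symbol) and transcript features from the longest coding transcript in GENCODE M21, both on GRCm38 and used without coordinates. Unique 50-mers are coding 50-mers in no other annotated Olfr transcript. Coding sequences were aligned globally with Biopython 1.88 (match 1, mismatch -1, gap opening -5, gap extension -1). The calculation of the difference between medians was checked on simulated data, which says nothing about its stability in these data.

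Named genes are all entries of runs of up to 8 genes, the 10 highest and 5 lowest on chromosome 17 near 37 Mb, the 6 highest and 4 lowest in the 12-entry chromosome 13 group, NOTEST entries, Olfr124, Olfr90, the 3 most alike pairs per group (by coding sequence, since no protein table was used here) and the 2 highest per family of at least 3. Others were chosen after their values were seen, as were the sequences. Members and lists were chosen with earlier results of these data known. With no replicate error, a value counts as moved in the closing section when it changed by more than 1.5 times.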

Additional observations from a re-analysis of the deposited data

How the results depend on the processing

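Of 60 values recomputed under the alternatives, 51 stayed within 1.5 times and 9 did not. Some of the 51 could not change, so their number does not measure stability. No entry of either group is a pseudogene, and the narrower gap left all 46 chromosome 17 entries in place. No locus of the chromosome 13 group exceeds the limit on locus length. Counts at a higher threshold, in turn, could not rise. The difference between the group medians reversed to -0.72 with only genes having at least 80% unique coding 50-mers, where the chromosome 13 median was 1.57 over 9 genes and 19 of 24 chromosome 17 genes reached an FPKM of 1. It reversed to -0.46 with a gap of 0.2 Mb between runs, where the chromosome 13 median was 1.57 too. Fewer genes remained in both. Without Olfr1359 and Olfr1360, chosen after seeing the data as were the MOR256-only settings and the limit on locus length, the difference was 0.032 and the chromosome 13 median 2.37. With an FPKM threshold of 5 in place of 1, the counts were 6 on chromosome 17 and 4 on chromosome 13. The pseudocount gave 0.57 at 1 and 0.76 at 0.01. Among MOR256 genes alone the difference was 0.85. That setting still holds Olfr1370, Olfr263 and Olfr1368, which the narrower gap leaves out, and it was not combined with that gap. No paired analysis was possible because each gene has a single value, and leaving out replicate 1 or 2 was not run for the same reason. Depth is unknown, so counting error could not be given for the low values.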
